A study of Mus musculus with 4 samples.

Results

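The inflammatory CC chemokines described here are 10 secreted attractants, Ccl2, Ccl3, Ccl4, Ccl5, Ccl6, Ccl7, Ccl8, Ccl9, Ccl12 and Ccl24, taken by gene symbol from the 54532 genes of the deposited table. Each symbol matched 1 gene, and all 10 passed the filter on low counts. The cells were macrophages of mice that carried glioblastoma xenografts, sorted live (DAPI-) as leukocytes (CD45+) of the myeloid line (CD11b+) that lacked the granulocyte marker Gr1, and their RNA was sequenced in bulk. The libraries MK-8931 1 and MK-8931 2 came from the MK-8931 arm, a drug also called verubecestat that blocks the protease BACE1, and control 1 and control 2 from macrophages labelled as control. All 4 share the xenograft and the sort. The labels' treatment entry speaks of 3 days of drug or vehicle on cultured cells called GSCs, while the cell type entries name sorted macrophages, so how the drug reached the macrophages is not settled by them. The host strain is given only as mice with glioblastoma, and whether the host had immune defects is not stated. No label ties a library to an animal of its own. The p-values therefore speak of the scatter among these 4 libraries, part or all of which may be technical.

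CC chemokines are small proteins named for adjacent cysteines near the start of the mature chain. They act through G-protein-coupled receptors on leukocytes: Ccl2, Ccl7 and Ccl12 draw monocytes through CCR2, Ccl3 and Ccl5 act partly through CCR1, Ccl6 and Ccl9 are rodent ligands of CCR1, Ccl8 acts in the mouse mainly through CCR8, and Ccl24 attracts eosinophils through CCR3. In brain tumours these ligands are known as products of macrophages and microglia and as signals that bring monocytes into the tumour.

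The stretch that defines the family is shown for 9 of the 10 genes, read from the GENCODE M21 transcripts of GRCm38. The capitals mark the codons of the adjacent cysteines, the first such pair after codon 25, within 30 bases of coding sequence. Ccl6 and Ccl9 carry them in exon 3 of 4, and the others shown in exon 2 of 3.
Ccl6 (chr11:83589374-83589403, minus strand, exon 3 of 4): acttcttcagacTGCTGCttctcttatgcc
Ccl9 (chr11:83575914-83575943, minus strand, exon 3 of 4): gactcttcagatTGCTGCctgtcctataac
Ccl4 (chr11:83663470-83663499, plus strand, exon 2 of 3): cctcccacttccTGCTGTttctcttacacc
Ccl5 (chr11:83529230-83529259, minus strand, exon 2 of 3): gacaccactcccTGCTGCtttgcctacctc
Ccl2 (chr11:82036494-82036523, plus strand, exon 2 of 3): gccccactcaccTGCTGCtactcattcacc
Ccl7 (chr11:82046526-82046555, plus strand, exon 2 of 3): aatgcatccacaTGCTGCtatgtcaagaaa
Ccl12 (chr11:82102622-82102651, plus strand, exon 2 of 3): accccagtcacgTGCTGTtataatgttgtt
Ccl8 (chr11:82116044-82116073, plus strand, exon 2 of 3): gctccagtcaccTGCTGCtttcatgtacta
Ccl24 (chr5:135572653-135572682, minus strand, exon 2 of 3): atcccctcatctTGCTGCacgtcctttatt
Over the 45 pairs of genes the aligned coding sequences were 60.2% to 72.4% identical, with 72.4% for Ccl2 and Ccl7, 71.4% for Ccl3 and Ccl4 and 70.6% for Ccl6 and Ccl9. The longest run of identical bases between transcripts was 25 for Ccl6 and Ccl9 and 23 for Ccl2 and Ccl7, and at most 17 for any other pair. How reads that fit more than 1 copy were counted is not given in the sources used here.

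Library totals were 18257930 to 20179875 counts. The macrophage label was checked against 8 defining markers, which were all expressed. Cd68 stood at 1643 and 1600 CPM in the MK-8931 libraries and at 1615 and 1826 CPM in the controls. Of the 8, 1 rose, Itgam. Fitted log2 fold changes in that list were above 0 for 3 and below 0 for 5. Itgam, Fcgr1 and Ptprc had both MK-8931 libraries above both controls. Adgre1, Aif1 and Mertk had both below, at log2 fold changes of −0.13, −0.28 and −0.38, and none of them passed by edgeR. CPM is a library's count scaled to a common depth after TMM normalisation, and FPKM further divides by gene length. With edgeR's quasi-likelihood test, 120 of 13932 tested genes rose and 19 fell at an adjusted p under 0.05, which is 0.998% of genes called in either direction.

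None of the 10 chemokine genes rose, against 0.861% of all genes, and none fell, against 0.136%, by edgeR at an adjusted p under 0.05. At an unadjusted p under 0.05 there were 3 of 10, Ccl9, Ccl6 and Ccl3, against 10.8% of all genes. DESeq2 called Ccl6 and Ccl9 (2.56% of all genes were called by it), and limma-voom called Ccl9 alone (1.08%). The authors' deposited table has Ccl9 at a log2 fold change of 0.89 with an adjusted p of 9.16e-05, and Ccl6 at 0.75 with 0.00162. That table calls 1.5% of its genes. The fitted log2 fold change was above 0 for 9 of 10 chemokine genes, against 49.6% of all genes, with a median of 0.22, against −0.003 over all genes tested. In CPM both MK-8931 libraries lay above both controls in 5 of 10, against 21.2% of all genes. In 0 of 10 both lay below, against 20% of all genes. For Ccl7 and Ccl5, which are among the 5, the groups overlapped in FPKM, where MK-8931 1 lay just under control 2. In bulk RNA, fewer or more cells of a type and less or more RNA per cell cannot be told apart.

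Some markers of other cell types rose in the MK-8931 group, and their part in the chemokine values was not tested. Of 15 neutrophil markers 10 were tested and 9 rose. Their summed level was 578 and 968 CPM with MK-8931 and 86.9 and 86.3 CPM in controls, with Elane at 0 and Ly6g, which the Gr1 antibody recognises, at 0 and 14 counts with MK-8931 and 0 in both controls. Of 8 monocyte markers 5 rose, among them Ccr2, Plac8, Chil3 and Ms4a4c. Fn1 made up most of the list's summed level of 5946 and 5503 CPM with MK-8931 and 5877 and 5484 CPM in controls, and the 7 markers other than Fn1 had no overlap, with the MK-8931 libraries higher. Ccr2 is also on the list of receptors. Of 8 dendritic cell markers 1 rose, H2-Ab1 (summed level 87.7 and 112 CPM with MK-8931, 46.9 and 35.9 CPM in controls). H2-Ab1 made up most of that sum, at 68.9 and 90.6 CPM with MK-8931 and 35.9 and 25.7 CPM in controls. Fitted log2 fold changes of the dendritic cell markers were above 0 for 7 and below 0 for 1, Zbtb46 (−1.11, edgeR adjusted p = 0.606). Of 8 border-associated macrophage markers 1 rose, Pf4, itself a chemokine of the CXC class (summed level 3938 and 3786 CPM with MK-8931, 3358 and 3454 CPM in controls). Fitted log2 fold changes in that list ran both ways, with 3 above 0 and 5 below. Mrc1 and F13a1, the most abundant of it, and Pf4 had both MK-8931 libraries above both controls. Cd163, Lyve1, Folr2 and Cbr2 had both below, at log2 fold changes of −0.64 for Cd163, −1.02 for Lyve1, −0.68 for Folr2 and −0.35 for Cbr2. None of these 4 passed by edgeR, with Cd163 nearest at an adjusted p of 0.0540, while DESeq2 also called Cd163 and Lyve1 and limma-voom Cd163. Of the 8 markers, 7 had an unadjusted edgeR p under 0.05, in both directions, against 10.8% of all genes.

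**Figure D1:**
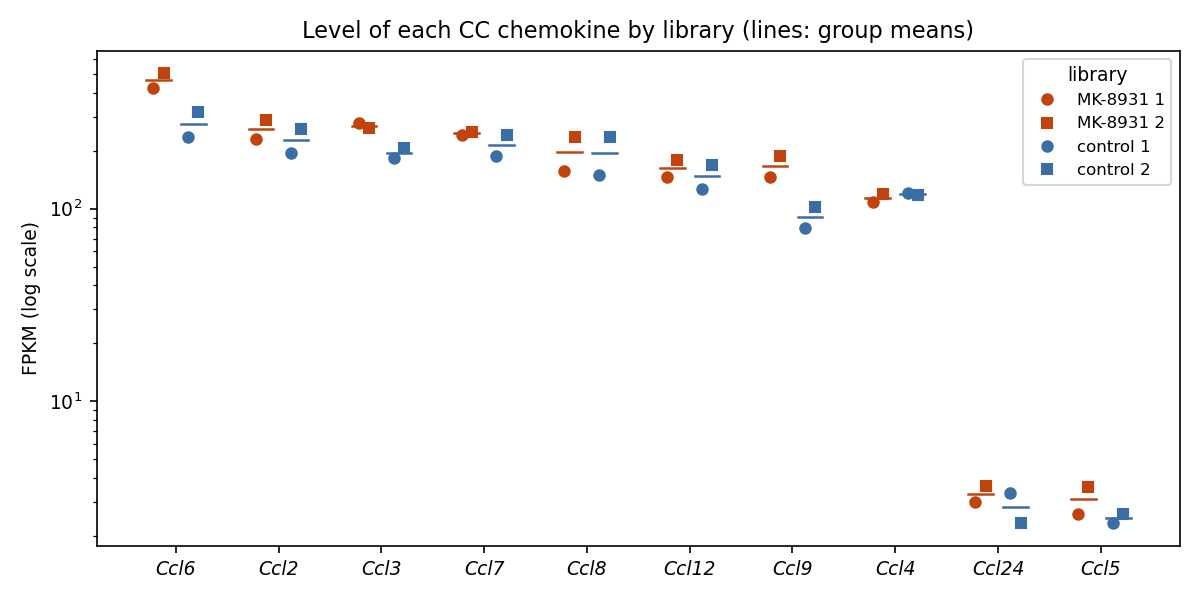
FPKM of each of the 10 CC chemokine genes on a log axis, in the MK-8931 libraries (orange, left) and the control libraries (blue, right), with circles for libraries numbered 1, squares for those numbered 2 and lines for group means. In every library 8 genes lie at or above 79.0 FPKM, and Ccl24 and Ccl5 lie at or below 3.62 FPKM.

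Per length of gene, 8 of the chemokines were among the more abundant transcripts of these macrophages and 2 were scarce. Ccl6 was the highest by its mean over the 4 libraries, with 96 of the 13932 tested genes above it, and Ccl4, the lowest of the 8, had 402 genes above it. Ccl24 and Ccl5 followed at 3.07 and 2.79 FPKM, with 8268 and 8555 genes above them. In MK-8931 macrophages the means were 463 ± 58.5 FPKM for Ccl6, 270 ± 11.7 for Ccl3, 259 ± 40.8 for Ccl2, 247 ± 6.20 for Ccl7, 196 ± 55.1 for Ccl8, 168 ± 29.7 for Ccl9, 163 ± 23.9 for Ccl12 and 114 ± 7.47 for Ccl4 (SD, n = 2). In control macrophages they were 276 ± 57.6 for Ccl6, 226 ± 44.9 for Ccl2, 215 ± 38.5 for Ccl7, 194 ± 16.4 for Ccl3, 194 ± 61.2 for Ccl8, 148 ± 30.6 for Ccl12, 119 ± 2.48 for Ccl4 and 90.4 ± 16.1 for Ccl9. Many neighbours in this order overlapped: in the controls Ccl6, Ccl2, Ccl3, Ccl7 and Ccl8 each overlapped the next in the order of means over all 4 libraries. With MK-8931 both libraries of Ccl6 lay above both of Ccl2, whereas in the controls they overlapped. Ccl9 and Ccl4 exchanged places: both Ccl9 values were above both Ccl4 values with MK-8931, and both below them in the controls.

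Ccl6 and Ccl9, rodent ligands of CCR1, had the highest fitted log2 fold changes of the 10 genes, with Ccl9 first. Ccl9 (ENSMUSG00000019122, chr11:83572919-83578636, GRCm38, minus strand) had 8760 and 10644 counts in the MK-8931 libraries and 4492 and 6049 in the controls. Scaled, it stood at 449 and 578 CPM with MK-8931 and at 242 and 309 CPM in controls. Both MK-8931 libraries were well above both controls. The log2 fold change was 0.90 (SE 0.17, a fitted fold of 1.87), with an unadjusted p of 5.77e-04 and an adjusted p of 0.0517 by edgeR, just outside the threshold.

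Ccl6 (ENSMUSG00000018927, chr11:83587882-83593087, minus strand) gave the most counts of the family, with 14877 and 16805 in the MK-8931 libraries and 7889 and 11098 in the controls. It stood at 762 and 913 CPM with MK-8931 and at 424 and 566 CPM in controls, again without overlap. Its log2 fold change was 0.76 (SE 0.17, a fitted fold of 1.69, edgeR adjusted p = 0.0876). Whether these genes passed depended on which libraries entered the edgeR fit. Ccl9 passed without control 1 (adjusted p = 0.00256), without control 2 (1.6e-04) and without MK-8931 1 (0.0265), but not without MK-8931 2 (0.301). Ccl6 passed without control 1 (adjusted p = 0.0185) or control 2 (2.16e-04), but not without MK-8931 1 (0.113) or MK-8931 2 (0.479). The fitted log2 fold change stayed above 0 in those fits, at 0.69 to 1.09 for Ccl9 and 0.56 to 0.98 for Ccl6. The ratio of Ccl9 to Ccl6 in FPKM was 0.347 and 0.373 with MK-8931 and 0.336 and 0.321 in controls.

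**Figure D2:**
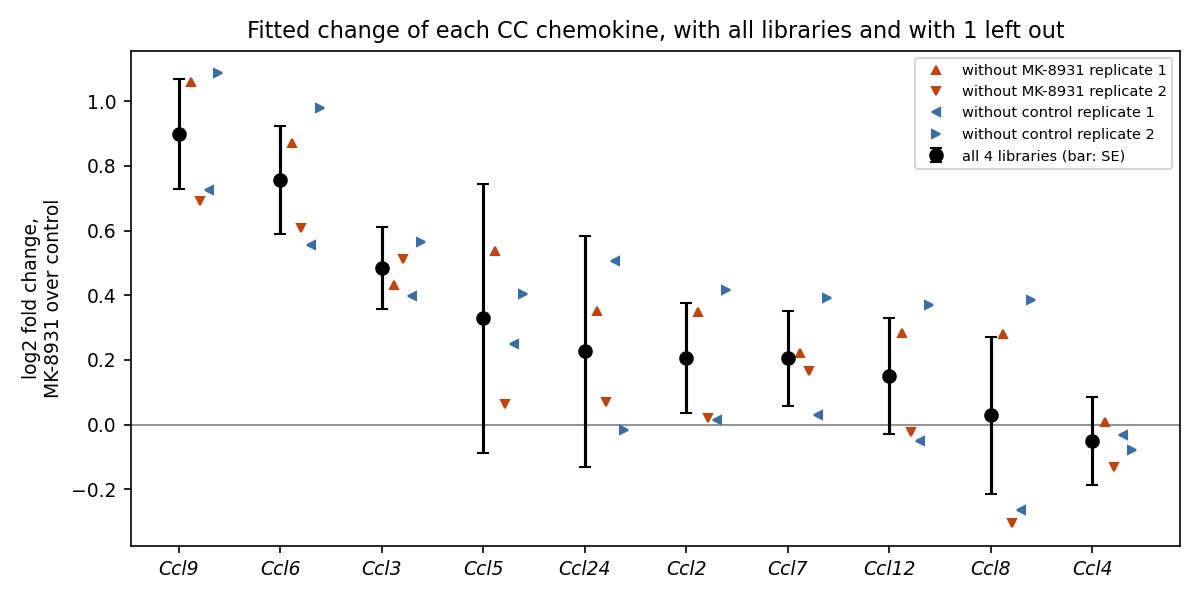
Fitted log2 fold change of MK-8931 over control for each CC chemokine gene (black, bar: SE), with the value after leaving out 1 library (orange triangles: an MK-8931 library, blue triangles: a control). Ccl9, Ccl6 and Ccl3 stay at or above 0.40 in each case, and Ccl12, Ccl24, Ccl8 and Ccl4 lie on both sides of 0.

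Ccl6 and Ccl9 are neighbours on chromosome 11. Their gene bodies are 9.25 kb apart with the same strand, and their start sites 14.5 kb apart. Promoters, 250 bases before to 50 after the annotated start, were found for 5 of 10 chemokine genes in the RefSeq table of GRCm38.p6: Ccl9, Ccl6, Ccl3, Ccl12 and Ccl8. Those of Ccl9 and Ccl6 are printed because the genes are adjacent and had the highest fitted log2 fold changes. Capitals mark bases identical in the 60-base window where they were most alike.
Ccl9 (chr11:83578587-83578886, minus strand): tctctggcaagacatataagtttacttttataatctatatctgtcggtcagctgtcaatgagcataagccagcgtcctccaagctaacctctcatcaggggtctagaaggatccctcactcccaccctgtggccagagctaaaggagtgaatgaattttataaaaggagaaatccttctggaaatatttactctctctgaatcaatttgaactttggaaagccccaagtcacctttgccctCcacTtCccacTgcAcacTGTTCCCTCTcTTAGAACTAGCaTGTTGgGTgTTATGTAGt
Ccl6 (chr11:83593038-83593337, minus strand): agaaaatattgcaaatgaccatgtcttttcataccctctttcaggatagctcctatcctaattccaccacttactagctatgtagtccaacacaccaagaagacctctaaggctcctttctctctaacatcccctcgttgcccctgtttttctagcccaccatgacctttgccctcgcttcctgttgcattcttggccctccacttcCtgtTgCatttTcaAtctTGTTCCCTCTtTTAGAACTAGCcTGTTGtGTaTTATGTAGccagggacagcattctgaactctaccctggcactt
In that window 41 of 60 bases (68.3%) were identical, at positions −45 to 15 for Ccl6 and −11 to 49 for Ccl9, counted from each annotated start. For the other 9 pairs among the 5 promoters, the best such window held 28 to 32 identical bases. On both strands, the Ccl9 promoter held a match to the NF-kB consensus with its first base at −35 and to the AP-1 motif TGANTCA at −53, and to TATAAA starting at −224, −94 and −92, the last pair overlapping. The Ccl6 promoter held no match to any of the 8 motifs searched. NF-kB matched 8.46% of 32841 promoters of the same length, AP-1 7.81% and TATAAA 13.6%. Of the others searched, the PU.1 core GAGGAA matched Ccl3, Ccl12 and Ccl8 (28.3% of promoters), TATAAA also matched Ccl12 and Ccl8, and TTGCNNAA (C/EBP, 10.8%), TTCNNNGAA (GAS, 8.3%), the N4-GAS element of STAT6 (6.95%) and the interferon element ISRE (3.44%) matched none of the 5. A match is a run of letters, not a bound site.

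Ccl3 and Ccl4, leukocyte attractants known as macrophage inflammatory proteins 1 alpha and 1 beta, lie 13.2 kb apart on opposite strands and gave unlike values. Ccl3 (ENSMUSG00000000982, chr11:83647844-83649355, minus strand) stood at 215 and 202 CPM with MK-8931 and at 141 and 157 CPM in controls. Both MK-8931 libraries were above both controls, with little spread inside either group. The log2 fold change was 0.48 (SE 0.13, edgeR adjusted p = 0.149), and 0.40 to 0.56 with a library left out. Ccl4 (ENSMUSG00000018930, chr11:83662584-83664683, plus strand) stood at 72.3 and 79.4 CPM with MK-8931 and at 80.0 and 77.1 CPM in controls. Its groups overlapped, with a log2 fold change of −0.05 (SE 0.14, edgeR adjusted p = 0.948). Within each library, the ratio of Ccl3 to Ccl4 in FPKM was 2.56 and 2.19 with MK-8931 and 1.52 and 1.76 in controls. These ratios did not overlap, and 2 libraries against 2 allow no two-sided exact permutation p below 0.33.

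Ccl5, also called RANTES and a product of T and NK cells as well as of macrophages, was scarce. Ccl5 (ENSMUSG00000035042, chr11:83525778-83530518, minus strand) had 49 and 64 counts in the MK-8931 libraries and 42 and 49 in the controls. The exact 95% Poisson intervals, which cover counting error only, ran from 36.3 to 64.8 and 49.3 to 81.7 with MK-8931 and from 30.3 to 56.8 and 36.3 to 64.8 in controls, so they overlapped. Both MK-8931 libraries were above both controls on the CPM scale, at 2.51 and 3.48 CPM with MK-8931 and 2.26 and 2.50 CPM in controls. In FPKM the groups overlapped, with MK-8931 1 under control 2 (2.60 against 2.61). The log2 fold change was 0.33 (SE 0.42, edgeR adjusted p = 0.863). The 12 markers of T and NK cells were at or near 0, with summed levels of 0.820 and 0.706 CPM with MK-8931 and 0.753 and 0.255 CPM in controls, and Ncr1, Klrb1c, Nkg7 and Gzma at 0 in each library. A count of 0 allows a level of up to 0.153 to 0.163 CPM (3 counts per library). Any link between these markers and the Ccl5 level was not tested.

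**Figure D3:**
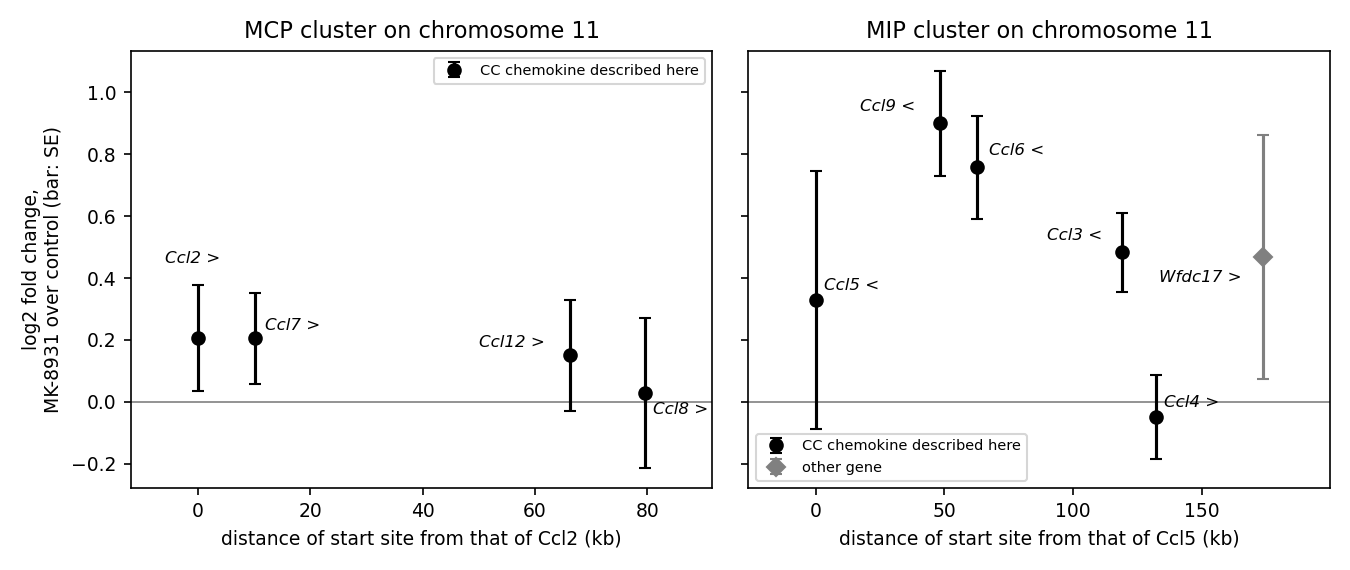
Fitted log2 fold change (MK-8931 over control, bar: SE) against the distance of each start site from that of Ccl2 (left) or Ccl5 (right), with > for the plus and < for the minus strand. In the right panel Ccl9 and Ccl6 stand at 0.90 and 0.76, Ccl3 at 0.48 and Ccl4 at −0.05, while the 4 genes on the left lie between 0.029 and 0.21. Ccl11, at 2 to 16 counts per library, and Ccl1, not tested, are left out.

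The monocyte chemoattractant genes of the other chromosome 11 cluster, 1.41 Mb away, had fitted log2 fold changes of 0.029 to 0.21. Ccl2 (ENSMUSG00000035385, chr11:82035571-82037453, plus strand), the main ligand of CCR2, stood at 264 and 330 CPM with MK-8931 and at 222 and 292 CPM in controls. The spread inside each group was larger than the gap between the means (log2 fold change 0.21, SE 0.17, edgeR adjusted p = 0.758). Ccl7 (ENSMUSG00000035373, chr11:82045712-82047525, plus strand), a second CCR2 ligand, stood at 195 and 202 CPM with MK-8931 and at 151 and 194 CPM in controls. Both MK-8931 libraries were above both controls in CPM, but in FPKM MK-8931 1 lay under control 2 (242.2 against 242.5). Only control 1 stood clearly apart (log2 fold change 0.21, SE 0.15, edgeR adjusted p = 0.713). The log2 fold change was 0.030 without control 1.

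Ccl12 (ENSMUSG00000035352, chr11:82101845-82103400, plus strand), the rodent CCR2 ligand also called MCP-5, stood at 78.8 and 97.2 CPM with MK-8931 and at 68.0 and 90.5 CPM in controls. Ccl8 (ENSMUSG00000009185, chr11:82115185-82116799, plus strand) stood at 80.9 and 121 CPM with MK-8931 and at 77.2 and 121 CPM in controls. For both genes the groups overlapped, with log2 fold changes of 0.15 for Ccl12 (SE 0.18) and 0.029 for Ccl8 (SE 0.24) and edgeR adjusted p-values of 0.851 and 0.984. Within a library Ccl12 kept close to Ccl2, at a ratio of 0.633 and 0.623 in FPKM with MK-8931 and 0.648 and 0.656 in controls. The ratio of Ccl9 to Ccl2 had no overlap between groups, at 0.636 and 0.654 with MK-8931 and 0.406 and 0.394 in controls. The ratio of Ccl6 to Ccl2 was 1.83 and 1.75 with MK-8931 and 1.21 and 1.23 in controls. These within-library ratios do not depend on the scaling between libraries.

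Ccl24 (ENSMUSG00000004814, chr5:135569937-135573049, minus strand), the eotaxin gene that lies apart from the others, had 76 and 87 counts in the MK-8931 libraries and 81 and 59 in the controls. The groups overlapped (log2 fold change 0.23, SE 0.36, edgeR adjusted p = 0.900), and the direction turned to −0.017 without control 2.

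In 7 of 10 chemokine genes the library numbered 2 was the higher in both groups. For Ccl2, Ccl5, Ccl6, Ccl7, Ccl8, Ccl9 and Ccl12, MK-8931 2 was above MK-8931 1 and control 2 above control 1. Over all tested genes 30.9% had this order, a share that leaves out genes with the library numbered 1 higher in both groups. Ccl8 shows the order plainly. Its libraries numbered 1 stood at 80.9 CPM with MK-8931 and 77.2 CPM in controls, and both libraries numbered 2 at 121 CPM.

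**Figure D4:**
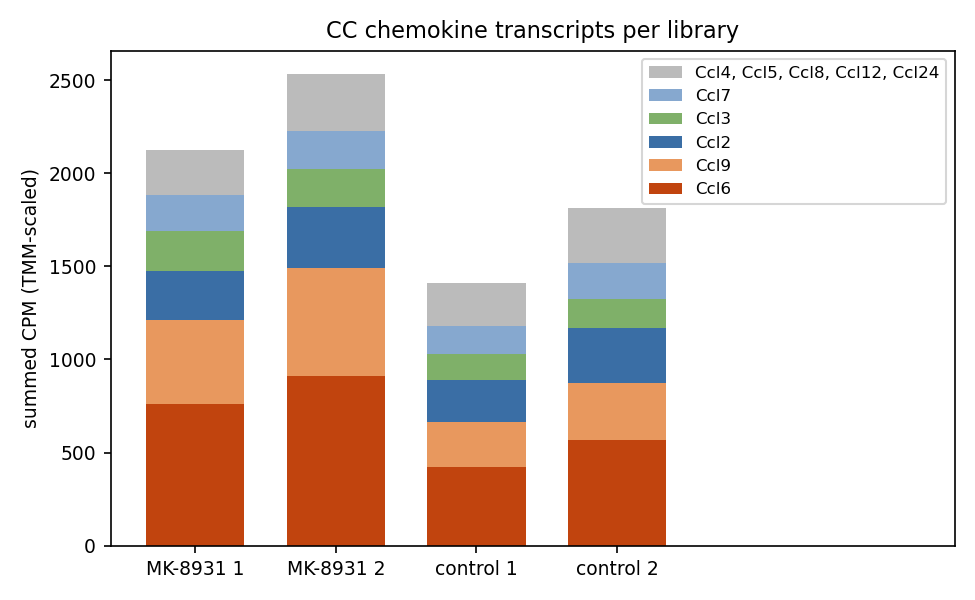
Stacked CPM of the 10 CC chemokine genes in each library. The bars reach 2123 and 2531 CPM in the MK-8931 libraries and 1412 and 1812 CPM in the controls, and Ccl6 with Ccl9 form the lower 2 blocks.

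Together the 10 genes took 0.214% and 0.255% of counts in the MK-8931 libraries and 0.143% and 0.176% in the controls. Both MK-8931 shares were above both control shares, in a design whose smallest exact two-sided permutation p is 0.33. Ccl6 and Ccl9 supplied 57.0% and 58.9% of the summed CPM of the family with MK-8931 and 47.2% and 48.3% in controls. Without these 2 genes the sums were 912 and 1041 CPM with MK-8931 and 746 and 937 CPM in controls, which overlap.

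The receptors of these ligands were described from a list of 9 genes, of which 5 were tested, 1 rose and 0 fell. The gene that rose was Ccr2, which draws monocytes towards Ccl2, Ccl7 and Ccl12. It stood at 133 and 145 CPM with MK-8931 and at 68.9 and 40.0 CPM in controls (log2 fold change 1.35, SE 0.23, edgeR adjusted p = 0.0359). Ccr2 did not pass with MK-8931 2 left out or with scaling by library size alone. Ccr1, the receptor of Ccl6 and Ccl9, stood at 179 and 249 CPM with MK-8931 and at 133 and 174 CPM in controls (log2 fold change 0.48, SE 0.19, adjusted p = 0.397). Ccrl2, an atypical receptor that does not signal in the classical way, stood at 252 and 253 CPM with MK-8931 and at 213 and 224 CPM in controls (log2 fold change 0.21, SE 0.12, adjusted p = 0.606). All 5 tested receptors had both MK-8931 libraries above both controls, against 21.2% of all genes. Ccr8, the mouse receptor of Ccl8, had 0 counts in each library.

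**Figure D5:**
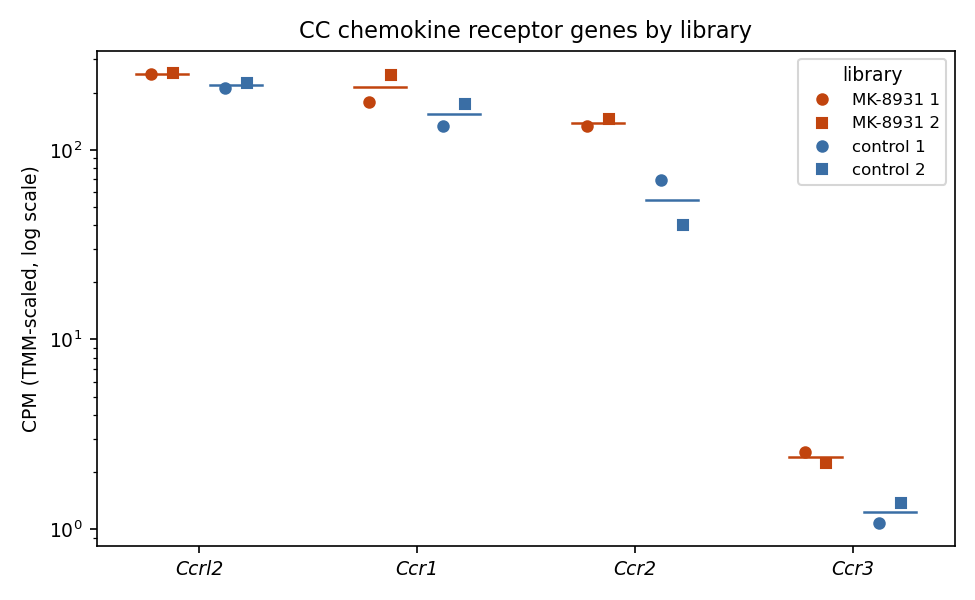
CPM on a log axis of Ccrl2, Ccr1, Ccr2 and Ccr3 in the MK-8931 libraries (orange, left) and the controls (blue, right), with circles for libraries numbered 1, squares for those numbered 2 and lines for group means. Ccr2 stands at 133 and 145 CPM with MK-8931 and at 68.9 and 40.0 CPM in controls, and Ccr3 is below 3 CPM in each library.

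Of the other CC chemokines, 10 symbols with 13 gene identifiers, 5 were tested, 1 rose and 0 fell. Ccl22, a ligand of CCR4, stood at 10.4 and 8.36 CPM with MK-8931 and at 2.74 and 2.70 CPM in controls (log2 fold change 1.78, SE 0.30, edgeR adjusted p = 0.0323), which did not pass with MK-8931 1 left out. Ccl17, which shares that receptor, stood at 1.28 and 2.55 CPM with MK-8931 and at 1.67 and 3.22 CPM in controls (log2 fold change −0.35, SE 0.55, adjusted p = 0.899). Ccl11, an eotaxin between Ccl7 and Ccl12 on the chromosome, had 16 and 12 counts in the MK-8931 libraries and 2 and 3 in the controls (log2 fold change 2.44, SE 1.03, adjusted p = 0.439).

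Genes known to switch these chemokines on were taken from a list of 20 cytokines and transcription factors, of which 19 were tested, 1 rose and 0 fell. Il1b, the interleukin-1 beta gene, rose, to 265 and 419 CPM with MK-8931, against 42.7 and 30.0 CPM in controls (log2 fold change 3.23, SE 0.25, edgeR adjusted p = 8.4e-04). DESeq2 called 3 of the list (Il1b, Nfkb2 and Tnf) and limma-voom 2 (Il1b and Tnf). Tnf, the tumour necrosis factor gene, stood lower, at 80.2 and 54.9 CPM with MK-8931 and 121 and 139 CPM in controls (log2 fold change −0.95, SE 0.19, edgeR adjusted p = 0.0605). It passed by edgeR with MK-8931 1, control 1 or control 2 left out, but not with MK-8931 2 left out. The AP-1 subunits Fos and Jun, the most abundant of the list, did not pass, with log2 fold changes of −0.36 for Fos (SE 0.18) and −0.43 for Jun (SE 0.14) and edgeR adjusted p-values of 0.541 and 0.260. Of 11 genes of mRNA decay and feedback inhibition, 0 passed by edgeR (3 at an unadjusted p under 0.05), 1 by DESeq2 (Nfkbie) and 0 by limma-voom, with a median log2 fold change of 0.17. The most abundant were Dusp1, a phosphatase of MAP kinases (log2 fold change −0.05, adjusted p = 0.950), Nfkbia, the inhibitor of NF-kB (0.52, adjusted p = 0.177), and Zfp36, which encodes the mRNA decay protein tristetraprolin (0.06, adjusted p = 0.950).

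Genes beside the chemokine clusters were also read. Within 100 kb of a chemokine gene lay 33 other genes, of which 10 were tested and 0 passed by edgeR, DESeq2 or limma-voom, with 2 at an unadjusted edgeR p under 0.05. The 7 with a mean of at least 1 CPM were Taf15, Wfdc17, Wfdc21 and Heatr6 on chromosome 11 and Hip1, Rhbdd2 and Por on chromosome 5. Wfdc17, a secreted protein of macrophages, stood at 107 and 229 CPM with MK-8931 and at 80.8 and 162 CPM in controls (log2 fold change 0.47, SE 0.39, adjusted p = 0.767), with the higher value in the library numbered 2 of each group. Wfdc21 stood at 2.77 and 9.78 CPM with MK-8931 and at 0 and 0.766 CPM in controls (log2 fold change 3.99, SE 1.00, adjusted p = 0.135). The other 5 had log2 fold changes of 0.0097 to 0.25. In the file's annotation Gm17268 overlaps Ccl2 and E230016K23Rik overlaps Ccl6 on the opposite strand. Gm17268 had 0 counts in both MK-8931 libraries and 1 and 3 in the controls, and E230016K23Rik had 13 and 4 with MK-8931 and 14 and 26 in controls, far below the chemokines they overlap.

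Microglia markers, 6 of 7 tested, summed to 1795 and 2022 CPM with MK-8931 and to 2185 and 2595 CPM in controls. By edgeR 0 passed, with 3 at an unadjusted p under 0.05, against 2 by DESeq2 and 0 by limma-voom. Eosinophil and mast cell markers, 3 of 8 tested, summed to 9.17 and 6.95 CPM with MK-8931 and to 3.60 and 4.49 CPM in controls, and 0 passed by edgeR, DESeq2 or limma-voom, with 1 at an unadjusted edgeR p under 0.05. Endothelial and astrocyte markers, 4 of 8 tested, summed to 291 and 411 CPM with MK-8931 and to 281 and 120 CPM in controls, with Aqp4 at 0 in each library. Col1a1, a collagen gene typical of fibroblasts, made up most of that sum, at 244 and 370 CPM with MK-8931 and 245 and 89.4 CPM in controls. Pecam1 stood at 24.0 and 20.5 CPM with MK-8931 and 10.8 and 4.64 CPM in controls, and Cdh5 at 4.10 and 2.50 CPM with MK-8931 and 7.21 and 5.61 CPM in controls. Of the 4 tested, 0 passed by edgeR, with 2 at an unadjusted p under 0.05, against 1 by DESeq2 and 0 by limma-voom.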

How the data were processed

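The authors' table holds whole-number read counts per gene for the 4 libraries, as the deposited headers name them. Its FPKM columns were made by the authors. They equal each count times 1 constant of its library, divided by gene length, so they were used as levels per length and not tested. The submitters' processing notes name CASAVA and mm9, but 98.3% of 54409 shared gene identifiers have GRCm38 (GENCODE M21) coordinates, which are used. Aligner, counter and use of strand: not given in the sources used here.

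Low genes were removed with filterByExpr (minimum count 10), which kept 13932. Libraries were scaled by TMM (factors 0.971 to 1.01). The test was edgeR 4.0.16 (R 4.3.3), a robust two-sided quasi-likelihood F test with Benjamini-Hochberg adjustment over all tested genes and a threshold of 0.05, checked on simulated data. The SE is the absolute log2 fold change over the square root of F. Alternatives were DESeq2 1.42.0 size factors and Wald test, limma 3.58.1 voom, library size alone, no filter, the replicate number as a block and each library left out. Coding sequences were aligned with Biopython 1.88.

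Both pairs of libraries of a group differed by more than sampling noise, with a chi-square over its degrees of freedom of 15.7 for MK-8931 and 26.8 for control. The 10 genes, the gene lists and the motifs were chosen with earlier results of these data known. All 10 genes are named. From each pathway list, genes past the threshold and up to 3 with the highest mean FPKM are named, and within 100 kb the genes with a mean of at least 1 CPM. Other named genes, such as Ccr8, Nfkbie, Tnf, Nfkb2, the overlapping genes and single markers, were chosen after their values were seen. A few genes and 1 sequence picked by these rules are not reported here.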

Additional observations from a re-analysis of the deposited data

How the results depend on the processing

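The count of chemokine genes that rose, 0 with all libraries under edgeR and TMM, was 1 with library size alone and with limma-voom, 2 with DESeq2 and with no filter on low counts, and 0 to 2 with a library left out. The causes of these moves were not tested. No chemokine gene fell under any alternative run. The receptors called, 1 in the reported fit, were 0 with library size alone, 2 with no filter, 2 with DESeq2 and 0 to 2 with a library left out. The other CC chemokines called were 0 to 1 with a library left out. Called inducers and transcription factors, 1 in the reported fit, were 4 with no filter, 3 with DESeq2, 2 with limma-voom and 1 to 6 with a library left out. Decay and feedback genes, 0 in the reported fit, were 2 with no filter, 1 with DESeq2 and 0 to 2 with a library left out. Neighbouring genes, 0 in the reported fit, were 1 with no filter and 0 to 1 with a library left out. Over all genes, rises (120) and falls (19) were 366 and 176 with no filter and 262 and 95 with DESeq2, falls were 30 with limma-voom, and leaving out a library gave 85 to 520 rises and 10 to 243 falls, the highest without control 1 and the lowest without MK-8931 2.

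In the fit with a block for replicate number, 3 chemokine genes rose (Ccl9, Ccl6 and Ccl3), and the counts were 2 receptors (without Ccr2), 6 inducers and transcription factors (without Il1b), 4 decay and feedback genes, 2 neighbours, 468 rises and 275 falls. The labels do not say that the numbers mark pairs, and the same-number correlation of deviations, 0.197, rests on 2 pairs only, so the block stands only as an alternative.

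Signs turned with a library left out, at log2 fold changes of 0.0072 for Ccl4 without MK-8931 1, −0.27 and −0.31 for Ccl8 without control 1 and without MK-8931 2, −0.051 and −0.023 for Ccl12 in those fits, and −0.017 for Ccl24 without control 2. Their ranges were −0.13 to 0.0072 for Ccl4, −0.31 to 0.39 for Ccl8, −0.051 to 0.37 for Ccl12 and −0.017 to 0.51 for Ccl24. The log2 ratio of the family's share of counts was 0.56, and 0.41 to 0.71 with a library left out. A lone library was assumed to vary like the other group. Depth limits Ccl5 and Ccl24, at under 90 counts each.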
